A study of Rattus norvegicus with 24 samples.

Results

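The 35 genes described here cover the making, sensing, moving, storing and export of cholesterol. They were chosen by symbol from a list of such genes, and every one of them has values in the table of 20506 genes with values. A set of 17 encodes enzymes from HMG-CoA synthase to the last reductase of cholesterol synthesis. The other members are Acat2, 7 regulators, 4 intracellular carriers, the ester enzyme genes Soat1, Lipe and Lipa, and 3 surface transporters and receptors.

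RNA was sequenced from 3 tissues of rats aged 24 weeks, namely superior cervical ganglion, adrenal gland and left ventricle. Each tissue was taken from the spontaneously hypertensive rat (SHR), an inbred strain with inherited high blood pressure, and from Wistar-Kyoto (WKY), the related strain used as its control. Neither strain carried a transgene or received a treatment that the labels name, and there were 4 libraries for each of the 6 groups. The strains differ at many loci, so blood pressure and other strain traits cannot be told apart, and since no label ties each library to a rat of its own, the spread behind the p-values may be technical.

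Animal cells build cholesterol from acetyl-CoA through mevalonate, squalene and lanosterol. When sterols run low, Scap escorts the SREBP factors, encoded by Srebf1 and Srebf2, to the Golgi for activation, and the Insig proteins hold them back when sterols are plentiful. The liver X receptors Nr1h2 and Nr1h3 sense oxysterols and switch on the efflux pumps Abca1 and Abcg1. The adrenal cortex takes up cholesteryl ester through Scarb1, stores it through Soat1 and turns it into steroid hormones, while neurons and glia make most of their own cholesterol, much of it for membranes and myelin.

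The labelled tissues carried their own markers. Summed over 6 cardiomyocyte genes, FPKM (fragments scaled to transcript length and library size) was 20919 to 26475 in the ventricle and at most 30.9 elsewhere. For 8 adrenal cortex genes it was 26433 to 29489 in the gland and at most 36.3 elsewhere, and for 7 sympathetic neuron genes 6914 to 7482 in the ganglion against 160 to 518 in the gland. The depth of the libraries is unknown, because FPKM holds no read counts. One adrenal library, SHR replicate 3, stood apart, with a second principal component of -25.7 where the other SHR libraries had 6.15 to 13.2, and adrenal results are given with and without it where that matters.

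Levels are FPKM, as mean ± SD of 4 libraries. A strain difference is the SHR mean less the WKY mean of log2(FPKM + 1), so that folds of genes with low levels come out too small. It has the standard error (SE) of limma, an adjusted p (Benjamini-Hochberg, over all genes tested in that comparison) and a threshold of 0.05. A gene was tested in a tissue if FPKM reached 1 in at least 4 of its 8 libraries, and all 35 members passed this in each tissue.

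Most members differed between the tissues of WKY rats. The ganglion held the highest levels of most synthesis enzymes and the adrenal gland those of Scarb1, Soat1 and Lipa, which serve uptake, storage and ester breakdown. Of the 35 members, 30 were higher in the ganglion than in the ventricle and 4 were lower, where 44.5% and 39.3% of all genes tested were called higher and lower. Between adrenal gland and ventricle 28 were higher in the gland and 2 lower, against 51.6% and 30.1%. Between adrenal gland and ganglion 12 were higher in the gland and 19 lower, against 47.7% and 36.8%. The median of all genes was itself 0.25 higher in the gland than in the ventricle on the log2(FPKM + 1) scale, and 0.04 after median-of-ratios scaling. Between gland and ganglion the medians were 0.17 and 0. The tissue differences of the members are relative to these shifts.

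All 17 synthesis enzymes were higher in the WKY ganglion than in the WKY ventricle. Sqle, squalene epoxidase, was at 134 ± 1.48 FPKM in the ganglion and 2.44 ± 0.318 in the ventricle, a log2 difference of 5.30 (SE 0.16, adjusted p = 1.56e-18). Hmgcs1, the HMG-CoA synthase of the mevalonate pathway, was at 311 ± 8.0 and 11 ± 0.750, a difference of 4.70 (SE 0.38, adjusted p = 4.09e-10). Fdps, farnesyl diphosphate synthase, had the highest level of all 35 members in the WKY ganglion at 361 ± 3.56 FPKM. The smallest differences from the ventricle were those of Pmvk, phosphomevalonate kinase (1.51), and Fdft1, squalene synthase (1.55). In the ventricle Npc2, Lipe and Fdft1 had the highest FPKM of the members.

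Compared with the ganglion, 14 of the 17 enzymes were lower in the adrenal gland, and Idi1 and Hsd17b7 did not pass. Dhcr7, the reductase that completes one branch of cholesterol synthesis, went the other way. Its level was 421 ± 41.9 FPKM in the gland, 26.4 ± 1.59 in the ganglion and 1.44 ± 0.180 in the ventricle. The gland exceeded the ganglion by 3.94 (SE 0.08, adjusted p = 1.12e-22). Within the gland, among the members, Scarb1 and Soat1 alone had a higher FPKM than Dhcr7.

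The adrenal gland was set apart by uptake, storage and ester breakdown. Scarb1, the receptor that takes up cholesteryl ester from high density lipoprotein, was at 2519 ± 306 FPKM in the WKY gland, 17 ± 3.08 in the ganglion and 7.34 ± 0.259 in the ventricle. Soat1, which esterifies cholesterol for storage, was at 514 ± 88.5, 6.76 ± 0.640 and 3.29 ± 0.461. Lipa, the acid lipase that splits cholesteryl ester in lysosomes, was at 303 ± 56.0, 35.7 ± 0.586 and 31.3 ± 2.05. Abca1, a pump that loads cholesterol on apolipoprotein, followed the same order at 31.3 ± 3.24, 3.19 ± 0.336 and 2.36 ± 0.424, and ganglion and ventricle differed by 0.32 (adjusted p = 0.0115). Its relative Abcg1 was at 27.6 ± 1.14 in the ganglion against 7.24 ± 0.715 in the gland and 6.69 ± 1.19 in the ventricle, and the last pair did not pass (difference 0.11, 95% interval -0.10 to 0.32).

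Acat2 encodes the cytosolic thiolase that joins acetyl-CoA units ahead of HMG-CoA synthase. It followed the enzymes, with 108 ± 2.19 FPKM in the ganglion, 77.5 ± 14.2 in the gland and 1.62 ± 0.474 in the ventricle. Lipe, hormone-sensitive lipase, was lowest in the ganglion. Its level was 90.3 ± 8.95 in the gland, 45.2 ± 3.29 in the ventricle and 6.90 ± 2.36 in the ganglion.

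Among the regulators, Srebf2, the SREBP most tied to sterol synthesis, was at 63.8 ± 1.2 FPKM in the ganglion, 32.2 ± 4.97 in the gland and 8.79 ± 0.736 in the ventricle. Srebf1, whose products act more on fatty acid genes, was highest in the gland at 30.6 ± 9.07, against 18.2 ± 2.21 and 5.52 ± 0.774. Nr1h3, liver X receptor alpha, was at 12.9 ± 1.41 in the gland and 11.3 ± 0.652 in the ventricle, which did not pass (difference 0.17, 95% interval -0.02 to 0.35), and at 4.36 ± 0.280 in the ganglion. Insig2 was the regulator with lower levels in both the gland and the ganglion than in the ventricle, by 0.46 and 0.32 on the log2 scale.

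**Figure D1:**
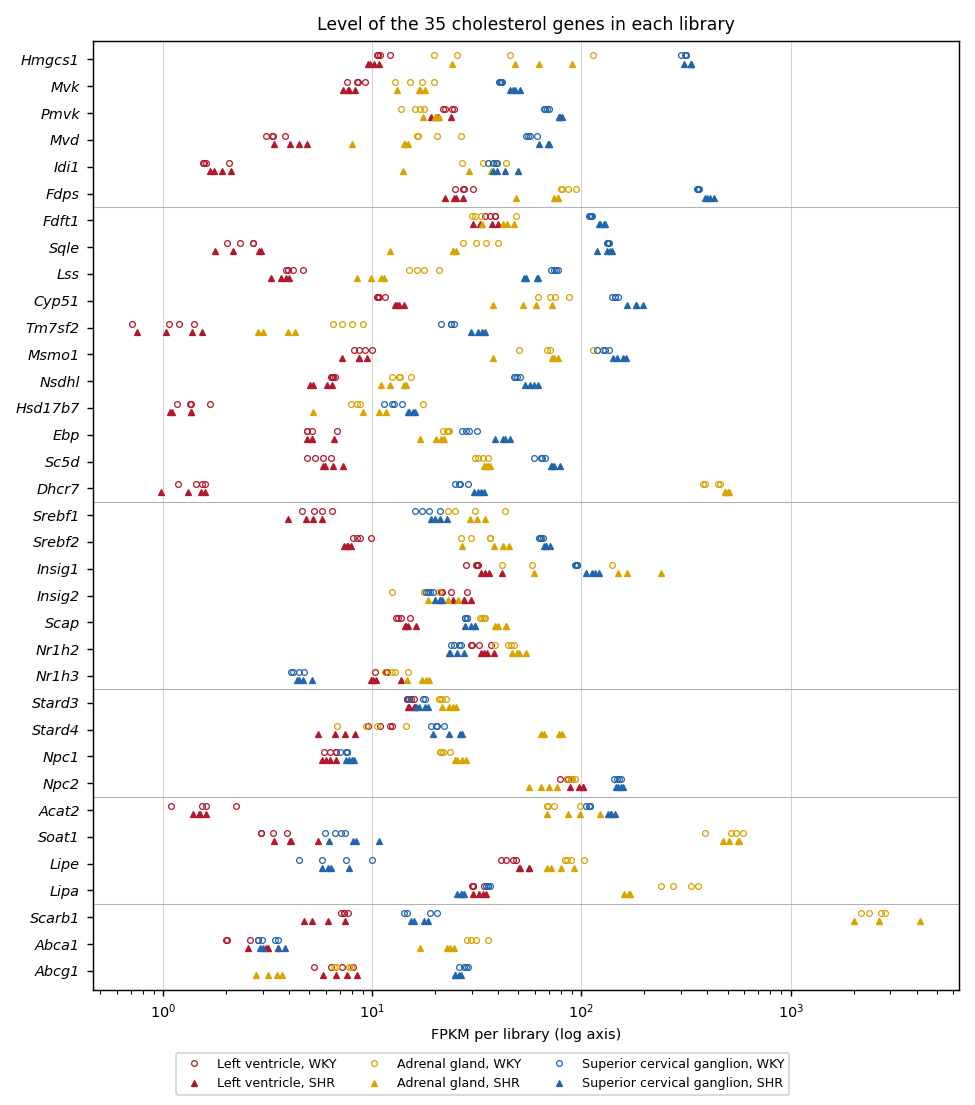
Each point is the FPKM of one library on a log axis, for the 35 genes ordered by role from synthesis (top) to efflux (bottom), with open circles for WKY and triangles for SHR. Most synthesis enzymes lie furthest right in the ganglion apart from Dhcr7, while Scarb1, Soat1, Lipa and Abca1 lie furthest right in the adrenal gland; the SHR adrenal Stard4 points, at 64.0 to 80.8, are clear of the other groups of that gene.

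In the superior cervical ganglion, SHR rats had slightly higher levels of most cholesterol synthesis genes. Of the 17 enzymes 13 rose and 1, Lss, fell, while Hmgcs1, Idi1 and Sqle did not pass. Across the 35 members 16 rose and 2 fell, where 6.37% of all tested genes were called higher and 4.43% lower. The changes were small, from 0.17 for Fdft1 to 0.53 for Ebp among the enzymes that rose, and the median over the 17 was 0.22 against 0.01 over all genes. The spread between ganglion libraries was small. In a joint model of all 24 libraries, which shares 1 estimate of spread between tissues, 5 of the 18 calls were left, namely Ebp, Tm7sf2, Dhcr7, Lss and Lipa.

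The strains did not overlap in most of these genes. Every SHR library was above every WKY library for 17 of the 35 members and below for 2, against 10.2% and 7.09% of all tested genes. The coefficient of variation of the enzymes in WKY ganglia had a median of 3.25%. It was 14.1% in WKY adrenal glands.

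The promoters of Ebp, Tm7sf2, Cyp51 and Lss are shown here for sequence context, from the RefSeq table of assembly GRCr8. Each holds 200 bases ending at the base before the transcript start, on the strand of the gene. Ebp, Tm7sf2 and Cyp51 had the largest rises of the enzymes in the SHR ganglion and Lss fell. Capitals mark CCAAT, the letters bound by NF-Y, and GGGCGG, the letters bound by Sp1, on either strand, so that ATTGG and CCGCCC are the same matches read on the opposite strand. NF-Y and Sp1 are known partners of SREBP at sterol genes.
Ebp (chrX:16971262-16971461, plus strand): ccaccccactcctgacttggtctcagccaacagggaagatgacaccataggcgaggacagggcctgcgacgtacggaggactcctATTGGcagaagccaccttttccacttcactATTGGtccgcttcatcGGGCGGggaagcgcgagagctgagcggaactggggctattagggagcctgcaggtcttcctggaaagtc
Tm7sf2 (chr1:212789542-212789741, minus strand): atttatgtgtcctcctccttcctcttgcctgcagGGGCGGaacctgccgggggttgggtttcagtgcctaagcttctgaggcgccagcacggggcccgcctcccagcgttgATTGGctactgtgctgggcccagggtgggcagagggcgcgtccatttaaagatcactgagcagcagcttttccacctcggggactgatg
Cyp51 (chr4:30991493-30991692, plus strand): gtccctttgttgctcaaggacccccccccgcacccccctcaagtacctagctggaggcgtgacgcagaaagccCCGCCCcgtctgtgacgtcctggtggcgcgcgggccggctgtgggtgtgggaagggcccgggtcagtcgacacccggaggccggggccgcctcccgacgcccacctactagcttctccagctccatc
Lss (chr20:12118231-12118430, minus strand): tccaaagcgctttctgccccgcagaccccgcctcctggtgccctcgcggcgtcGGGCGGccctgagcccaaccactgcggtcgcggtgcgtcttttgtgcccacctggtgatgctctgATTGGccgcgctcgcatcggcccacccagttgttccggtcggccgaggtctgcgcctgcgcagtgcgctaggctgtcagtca

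A promoter of 300 bases, from 250 before to 50 after the start, was in the RefSeq table for 28 of the 35 members. CCAAT was found on either strand in 19 of these 28, and in 12 of the 14 enzymes with an entry, against 37.7% of 27457 rat promoters. GGGCGG was found in 22 of 28 and again in 12 of the 14 enzymes, against 34.9%. The shares over all promoters are not limited to genes tested here, while every member passed the FPKM filter in each tissue. TCACNCCAC, a form of the sterol regulatory element, was found in 0 of 28 against 1.13%, and CAAGGTCA, the letters of the steroidogenic factor SF-1, in 0 of 28 against 1.48%. No match of one motif overlapped a match of another. Lss, which fell, has both CCAAT and GGGCGG, as do Ebp and Tm7sf2, which rose. The Cyp51 window shown has GGGCGG and no CCAAT.

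Among the mevalonate enzymes, Mvk, Pmvk, Mvd and Fdps rose in the SHR ganglion by 0.18 to 0.25. Pmvk, which adds the second phosphate to mevalonate, was at 68.8, 66.6, 66.5 and 69.9 FPKM in the WKY libraries. The SHR libraries held 81.0, 78.4, 78.2 and 79.4, all above WKY, and the difference was 0.22 (SE 0.03, adjusted p = 0.00199). Fdps was at 360.1, 358, 366 and 361 in WKY and 413, 400.1, 430.3 and 390.5 in SHR, also without overlap, with a difference of 0.18 (SE 0.04, adjusted p = 0.0102). Fdps, Nsdhl, Idi1 and Acat2 have annotated pseudogenes or near-identical copies in the rat, so their reads may be split and their values are uncertain. Hmgcs1 was at 299 to 316 and 308 to 335 and did not pass (difference 0.07, 95% interval -0.01 to 0.16).

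From squalene synthase to the end of the pathway, 9 of 11 enzymes rose, Lss fell and Sqle did not pass. Ebp, a sterol isomerase, had the largest rise, from 27.0, 29.1, 31.9 and 28.1 FPKM in WKY to 38.4, 43.0, 45.6 and 42.1 in SHR. The lowest SHR library lay above the highest WKY library, the mean ratio was 1.46 and the difference was 0.53 (SE 0.06, adjusted p = 4.54e-04). Tm7sf2, a sterol reductase that acts after lanosterol, was at 24.5, 23.9, 23.9 and 21.2 in WKY and 34.7, 31.9, 33.5 and 29.7 in SHR. This difference of 0.46 (SE 0.06, adjusted p = 9.02e-04) was again without overlap.

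Cyp51, the demethylase of lanosterol, was at 145, 150.4, 140.0 and 144 FPKM in the WKY ganglion and at 182, 197, 182 and 165 in SHR. SHR was higher in every library, by 0.32 (SE 0.05, adjusted p = 0.00324). Dhcr7 was at 28.6, 25.9, 24.8 and 26.4 in WKY and 30.5, 34.1, 32.9 and 32.2 in SHR, a difference of 0.29 (SE 0.05, adjusted p = 0.00588). Nsdhl, a dehydrogenase that helps remove methyl groups from the sterol ring, was at 47.6, 50.9, 49.1 and 48.0 and 59.4, 56.6, 62.1 and 53.8. For both genes the groups were apart, and the Nsdhl difference was 0.24 (SE 0.05, adjusted p = 0.0102). Msmo1, Hsd17b7 and Sc5d, which also modify the sterol ring, rose by 0.25, 0.27 and 0.21; Hsd17b7 was not called when SHR replicate 2, SHR replicate 4 or WKY replicate 2 was left out (adjusted p up to 0.0543).

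Lss, lanosterol synthase, closes squalene epoxide into the first sterol. It was the enzyme that fell in the SHR ganglion. The WKY libraries were at 75.4, 74.1, 77.4 and 71.6 FPKM and the SHR libraries at 54.5, 62.2, 61.5 and 53.4. The groups did not overlap, and the difference was -0.36 (SE 0.06, adjusted p = 0.00216). Sqle, which makes that epoxide, was at 132 to 136 in WKY and 118 to 139 in SHR (difference -0.03, 95% interval -0.14 to 0.08).

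**Figure D2:**
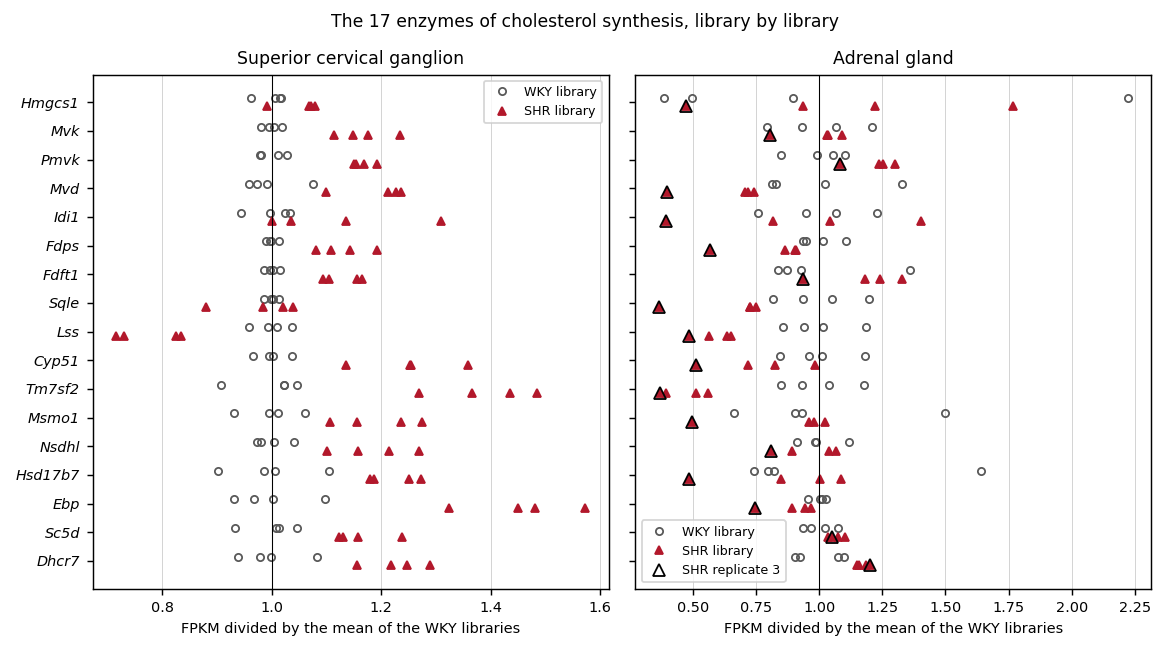
FPKM of each library divided by the mean of the 4 WKY libraries of its tissue, for the 17 synthesis enzymes, in the ganglion and the adrenal gland (x ranges differ); circles are WKY, triangles SHR, and the adrenal SHR replicate 3 is ringed. In the ganglion the SHR points of 13 enzymes lie wholly to the right of WKY and those of Lss to the left, while in the gland the points spread more widely and replicate 3 is the lowest SHR library in 15 of 17.

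Outside the enzymes, Acat2 rose in the ganglion from 108 ± 2.19 to 139 ± 4.37 FPKM (0.36, SE 0.03, adjusted p = 1.17e-04). Insig1 rose from 94.4 ± 0.813 to 114 ± 7.13 (0.27, SE 0.05, adjusted p = 0.00396). Insig2 rose by 0.15 (adjusted p = 0.0456), a call that was lost in 13 of 16 alternative settings, with an adjusted p up to 0.599. Srebf2 was at 62.7 to 65.5 in WKY and 66.2 to 70.7 in SHR and did not pass (difference 0.09, adjusted p = 0.135). Srebf1, Scap and both liver X receptor genes did not pass either.

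Lipa was the other member that fell in the ganglion. Its levels were 35.6, 36.4, 35.7 and 35 FPKM in WKY and 26.8, 27.6, 26.5 and 25.5 in SHR. The lowest WKY library was far above the highest SHR library, and the difference was -0.41 (SE 0.04, adjusted p = 7.15e-05). The 4 carriers, Soat1, Lipe, Scarb1, Abca1 and Abcg1 did not pass, with differences from -0.11 for Abcg1 to 0.25 for Soat1.

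Markers of cell types in the ganglion were read beside these values. Of 7 Schwann and satellite glia markers 1, S100b, was lower in SHR (-0.59, SE 0.05, adjusted p = 8.50e-05), and their summed FPKM was 1260 to 2131 in WKY and 1207 to 2013 in SHR, with no marker at 0. Of 7 sympathetic neuron markers 1, Dbh, was lower, with sums of 6914 to 7482 and 7026 to 7074. Of 8 macrophage markers 1, Aif1, was lower, with sums of 60.7 to 97.9 and 59.2 to 71.2. Of 7 chromaffin cell markers tested, Chgb (0.72, SE 0.05, adjusted p = 1.63e-05) and Slc18a1 (1.08, SE 0.16, adjusted p = 0.00316) were higher and Dbh, which is also in the neuron list, was lower. Summed over that list, FPKM was 2857 to 3067 in WKY and 2763 to 2974 in SHR, with no marker at 0. Of 5 cardiomyocyte markers tested, Myh6, Tnnt2 and Myl2 were lower in SHR, with sums of 13.6 to 16.9 in WKY and 10.6 to 11.9 in SHR. Of 5 adipocyte markers tested, Cidea was lower, and of 6 adrenal cortex markers tested, Inha was higher. The part of these cells in the enzyme levels was not tested, and in bulk tissue fewer cells of a type and less RNA per cell cannot be told apart.

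In the adrenal gland the genes went both ways. Stard4 rose about 7-fold, and Nr1h3, Scap, Pmvk, Npc1 and Dhcr7 rose by 0.24 to 0.39 log2 units. Tm7sf2, Lss, Sqle and Mvd of the synthesis enzymes fell, as did the pumps Abcg1 and Abca1 and the lysosomal genes Lipa and Npc2. This made 6 of 35 higher and 8 lower, where 16.5% of all tested genes were called higher and 24.7% lower, so the members' share called was close to that of all genes. Under median-of-ratios scaling 8 were higher and 6 lower, with Mvd and Sqle lost and Nr1h2 and Stard3 gained. The SHR libraries were above WKY without overlap in 4 members and below in 9, against 16.3% and 23.2% of all tested genes.

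Stard4, a soluble sterol carrier whose gene is a known SREBP target, had the largest strain difference of the 35 members in any tissue. In the WKY gland its levels were 9.31, 14.5, 6.78 and 10.5 FPKM. The SHR libraries were at 80.8, 66.0, 64.0 and 78.4, every one more than 4 times the highest WKY value. The mean ratio was 7.04 and the difference 2.74 (SE 0.19, adjusted p = 2.00e-05), or 2.79 without SHR replicate 3. In the ventricle Stard4 was lower in SHR. Libraries there were at 12.1, 12.5, 10.9 and 9.49 in WKY and 6.67, 5.51, 8.30 and 7.43 in SHR, again apart, with a difference of -0.62 (SE 0.12, adjusted p = 0.00529). In the ganglion the groups overlapped, at 19.1 to 22.0 and 19.6 to 26.9 (difference 0.22, adjusted p = 0.183).

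Npc1 and Npc2 act in turn to move cholesterol out of lysosomes, and in the gland they went in opposite directions. Npc1, the membrane protein, was at 21.7, 23.5, 21.4 and 21.1 FPKM in WKY and 26.7, 24.9, 28.1 and 25.5 in SHR. Its SHR libraries were above all WKY libraries, by 0.25 (SE 0.06, adjusted p = 0.00841). Npc2, the soluble partner, was at 89.7, 85.0, 93.0 and 89.1 in WKY and 63.9, 76.8, 56.4 and 69.9 in SHR. This time SHR was lower throughout, by 0.42 (SE 0.09, adjusted p = 0.00414). Stard3, a late endosomal sterol carrier, was at 20.9 to 22.5 and 21.6 to 25.1 and did not pass (adjusted p = 0.131).

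Lipa, upstream of these carriers, was at 336, 240.3, 273 and 363 FPKM in the WKY gland. The SHR libraries lay close together at 169, 169.7, 159 and 171, all below WKY. The difference was -0.83 (SE 0.12, adjusted p = 5.62e-04), so that Lipa was lower in SHR in both the gland and the ganglion. Soat1 was at 514 ± 88.5 and 528 ± 44.4 (difference 0.05, 95% interval -0.23 to 0.33). Lipe, at 90.3 ± 8.95 and 78.1 ± 10.7, did not pass (adjusted p = 0.122).

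The export pumps fell together in the SHR gland. Abcg1 libraries were at 6.53, 6.73, 7.94 and 7.77 FPKM in WKY and 2.79, 3.72, 3.5 and 3.16 in SHR. All SHR values were below all WKY values, and the difference was -0.94 (SE 0.10, adjusted p = 1.21e-04). Abca1 was at 29.8, 28.3, 31.4 and 35.8 in WKY and 24.6, 17, 23.5 and 22.7 in SHR, likewise apart, with a difference of -0.50 (SE 0.12, adjusted p = 0.00723). Nr1h3, a receptor that drives both pumps elsewhere, was higher in SHR. Its levels were 12.8, 14.8, 12.4 and 11.5 and 17.2, 14.7, 18.7 and 18.1, with 1 SHR library just inside the WKY range and a difference of 0.39 (SE 0.09, adjusted p = 0.00911).

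Scarb1 had the highest level of the 35 and a wide spread. WKY libraries were at 2834, 2711, 2361 and 2172 FPKM. SHR libraries were at 2004, 2635, 4157 and 2652, on both sides of WKY, with replicate 3 the highest. The difference of 0.14 did not pass (95% interval -0.33 to 0.61).

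Markers of several cell types also differed between the strains in the gland. All 8 macrophage markers were lower in the SHR gland, with summed FPKM of 66.3 to 101 against 147 to 185 in WKY, and no marker was at 0. All 7 endothelial markers were lower, at 91.9 to 138 against 166 to 180. Of 8 chromaffin markers, the genes of the adrenal medulla, 7 were lower, at 969 to 1712 against 2021 to 2328. Of 7 sympathetic neuron markers 6 were lower, at 160.1 to 308 against 429.7 to 518, and all 3 erythroid markers were lower, at 27.9 to 99.6 against 238 to 304, with 1 of them at 0 in SHR. Of 8 cortex markers Star and Mc2r were higher and Inha lower, and the sums were 28877 to 29489 in SHR and 26433 to 28474 in WKY. Of 5 cardiomyocyte markers tested, Myh6, Tnnt2 and Myl2 were lower, with sums of 19.6 to 30.7 in SHR and 26.2 to 30.9 in WKY. Of 5 Schwann and satellite glia markers tested, S100b was higher (0.74) and Pmp22 lower (-0.83). Of 5 adipocyte markers tested, Cidea was higher (0.94). Macrophages are known to express Abca1, Abcg1, Lipa and Npc2, a list that holds only members that fell. Nr1h3 and Npc1 were higher in the SHR gland, by 0.39 and 0.25. The part of cell makeup in any of these differences was not tested.

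Of the synthesis enzymes, Tm7sf2 had the largest fall in the gland. Its WKY libraries were at 7.16, 7.96, 6.52 and 9.03 FPKM and its SHR libraries at 3.94, 4.29, 2.83 and 3.01. The groups were apart and the difference was -0.95 (SE 0.13, adjusted p = 5.36e-04), opposite in sign to the ganglion. Lss was at 17.7, 20.7, 16.4 and 15.0 in WKY and 9.87, 11.4, 8.49 and 11.1 in SHR. It was lower in every SHR library, by 0.72 (SE 0.11, adjusted p = 0.00103), and thus fell in both gland and ganglion.

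Sqle and Mvd, a decarboxylase of the mevalonate pathway, were close to the threshold. Sqle was at 35.1, 40.0, 27.3 and 31.3 FPKM in WKY and 24.3, 25.0, 12.2 and 24.3 in SHR, without overlap, with a difference of -0.66 (SE 0.23, adjusted p = 0.0476). Mvd was at 16.6, 26.6, 16.3 and 20.5 in WKY and 14.1, 14.3, 7.97 and 14.9 in SHR, also apart, with a difference of -0.61 (SE 0.21, adjusted p = 0.0482). SHR replicate 3 was the lowest library for both. Without it the differences were -0.42 for Sqle (adjusted p = 0.0170) and -0.42 for Mvd (adjusted p = 0.0582). Calls were lost in 10 of 16 alternative settings for Sqle and in 12 for Mvd, with an adjusted p up to 0.114 and 0.105. Mvd was not called without any 1 of the 8 libraries, nor Sqle without any WKY library or SHR replicate 1 or 4.

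Pmvk and Dhcr7 rose in the gland. Pmvk was at 13.7, 17.7, 16.0 and 17 FPKM in WKY and 20.1, 19.9, 17.4 and 20.9 in SHR, with replicate 3 of SHR inside the WKY range. The other SHR libraries were above WKY, and the difference was 0.27 (SE 0.09, adjusted p = 0.0338). Dhcr7 was at 462, 452, 380.1 and 389.6 in WKY and 484, 487, 505 and 499.6 in SHR. Its SHR libraries were above all of WKY and close together, and the difference was 0.24 (SE 0.07, adjusted p = 0.0229). The Pmvk call was lost without SHR replicate 1, 2 or 4 or WKY replicate 1 or 3 (adjusted p up to 0.0866). For Dhcr7 the call ended when WKY replicate 3, WKY replicate 4 or SHR replicate 4 was left out (adjusted p up to 0.0680). Scap was higher in each SHR library, at 43.6, 38.5, 40.0 and 43.4 against 32.6, 34.0, 34.7 and 33.3 in WKY (0.29, SE 0.06, adjusted p = 0.00339).

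The libraries within a strain differed in the adrenal gland more than in the other tissues. The median coefficient of variation of the 17 enzymes was 14.1% in WKY and 20.1% in SHR glands. Hmgcs1 and Insig1, named here after their values were seen, spread most. In WKY Hmgcs1 was at 25.4, 114, 19.7 and 45.7 FPKM, and in SHR at 47.9, 90.3, 24.1 and 62.4. Insig1 was at 58.1, 140.0, 41.5 and 95.3 and 166, 241, 59.6 and 149. In both strains the library numbered 2 was the highest and that numbered 3 the lowest for both genes, and the strains overlapped. The Insig1 difference of 0.86 had a 95% interval of -0.34 to 2.05 and did not pass. In the joint model of 24 libraries it did pass.

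The same libraries stood out across the enzymes. Replicate 2 was the highest WKY library in 14 of 17 enzymes and replicate 3 the lowest in 11. In SHR, replicate 2 was the highest in 12 and replicate 3 the lowest in 15. The mean of 9 fatty acid synthesis genes as log2(FPKM + 1) was 5.68 in WKY replicate 2 and 5.02 to 5.07 in the other WKY libraries, and 4.52 in SHR replicate 3 against 4.73 to 4.83. The mean of 6 adipocyte markers was highest in WKY replicate 2 (4.14 against 2.20 to 3.10) and in SHR replicate 3 (3.52 against 1.68 to 2.72). Whether fat around the gland has a part in these values was not tested. Without SHR replicate 3, 15 members were called, Mvd being lost and Srebf2 and Stard3 gained.

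**Figure D3:**
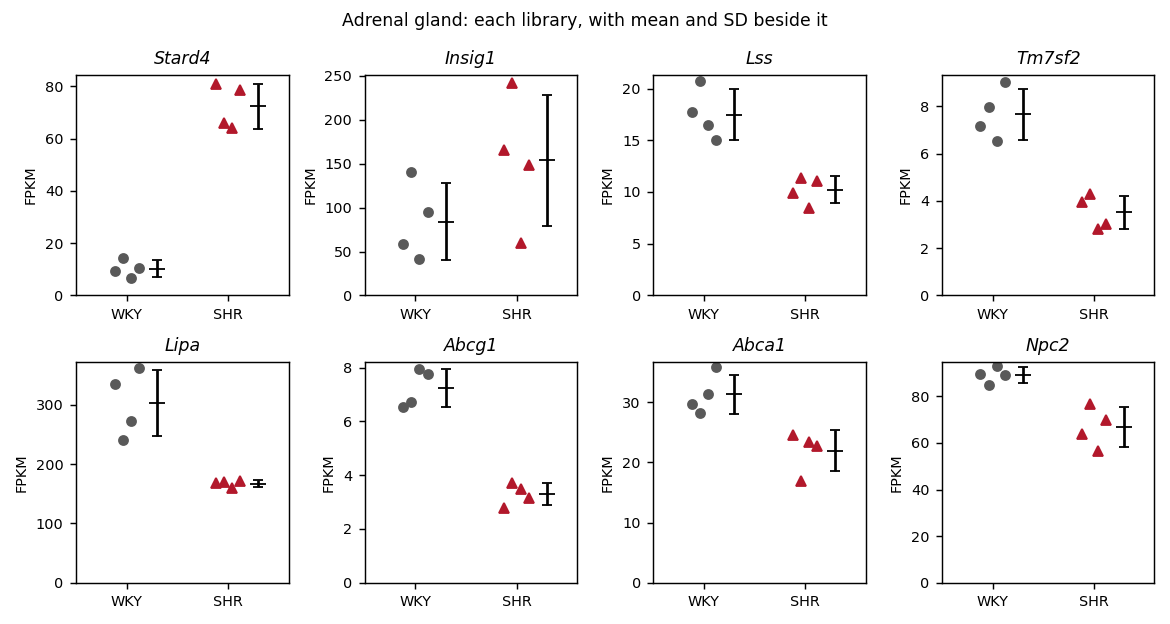
FPKM of 8 members in each adrenal library (circles WKY, triangles SHR; axes start at 0 and differ between panels), with the mean and SD of 4 libraries beside the points. SHR points lie above all WKY points for Stard4 and below for Lss, Tm7sf2, Lipa, Abcg1, Abca1 and Npc2, while the Insig1 points of the strains overlap.

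In the left ventricle few members changed. Cyp51 and Lipe rose and Stard4, described above, fell. This is 2 of 35 higher and 1 lower, where 9.2% and 12% of all tested genes were called. Under median-of-ratios scaling 4 were higher and 1 lower, as Insig1 and Npc2 were added, and 5 were called under quantile normalization. No overlap of the strains was seen in 3 members that were higher in SHR and 2 that were lower, against 10.6% and 14.2% of all tested genes.

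Cyp51 in the ventricle was at 11.5, 10.8, 10.6 and 10.7 FPKM in WKY and 14.2, 12.9, 13.4 and 13.1 in SHR. Each SHR library exceeded each WKY library, and the difference was 0.28 (SE 0.06, adjusted p = 0.0112). Of the other 16 enzymes 5 had a positive difference and 11 a negative one, from -0.16 for Nsdhl to 0.23 for Mvd, and no other passed. Lipe was at 41.4 to 48.7 in WKY and 50.5 to 56.4 in SHR (0.24, SE 0.07, adjusted p = 0.0327). Leaving out SHR replicate 1 or 4, or WKY replicate 1 or 3, ended the Lipe call, with an adjusted p up to 0.0907. So did the joint model, which also ended that of Cyp51 and added Npc2. Npc2 (0.19, adjusted p = 0.0635), Insig1 (0.23, adjusted p = 0.0646) and Scarb1 (-0.30, adjusted p = 0.0850) came next. Of 8 macrophage markers 4, Cd68, C1qa, C1qb and C1qc, were higher in the SHR ventricle, with sums of 164 to 274 against 102 to 149 FPKM, none at 0. All 3 erythroid markers were lower there, with sums of 430.1 to 567 against 647 to 1647. Of 7 endothelial markers Egfl7 and Tie1 were lower, with overlapping sums of 510.4 to 649.6 and 516 to 692. Of 6 cardiomyocyte markers Tnnt2 and Tnni3 were lower and Ryr2 higher, with sums of 20919 to 22026 in SHR and 24024 to 26475 in WKY. Of 5 Schwann and satellite glia markers tested, 1, S100b, was lower (-1.07). Of 6 adipocyte markers only Cidea was tested, and it was lower (-1.34). The other 5 had means under 1 FPKM in both strains, so Cidea cannot be read as a mark of fat cells there. The part of these cells in the values above was not tested.

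**Figure D4:**
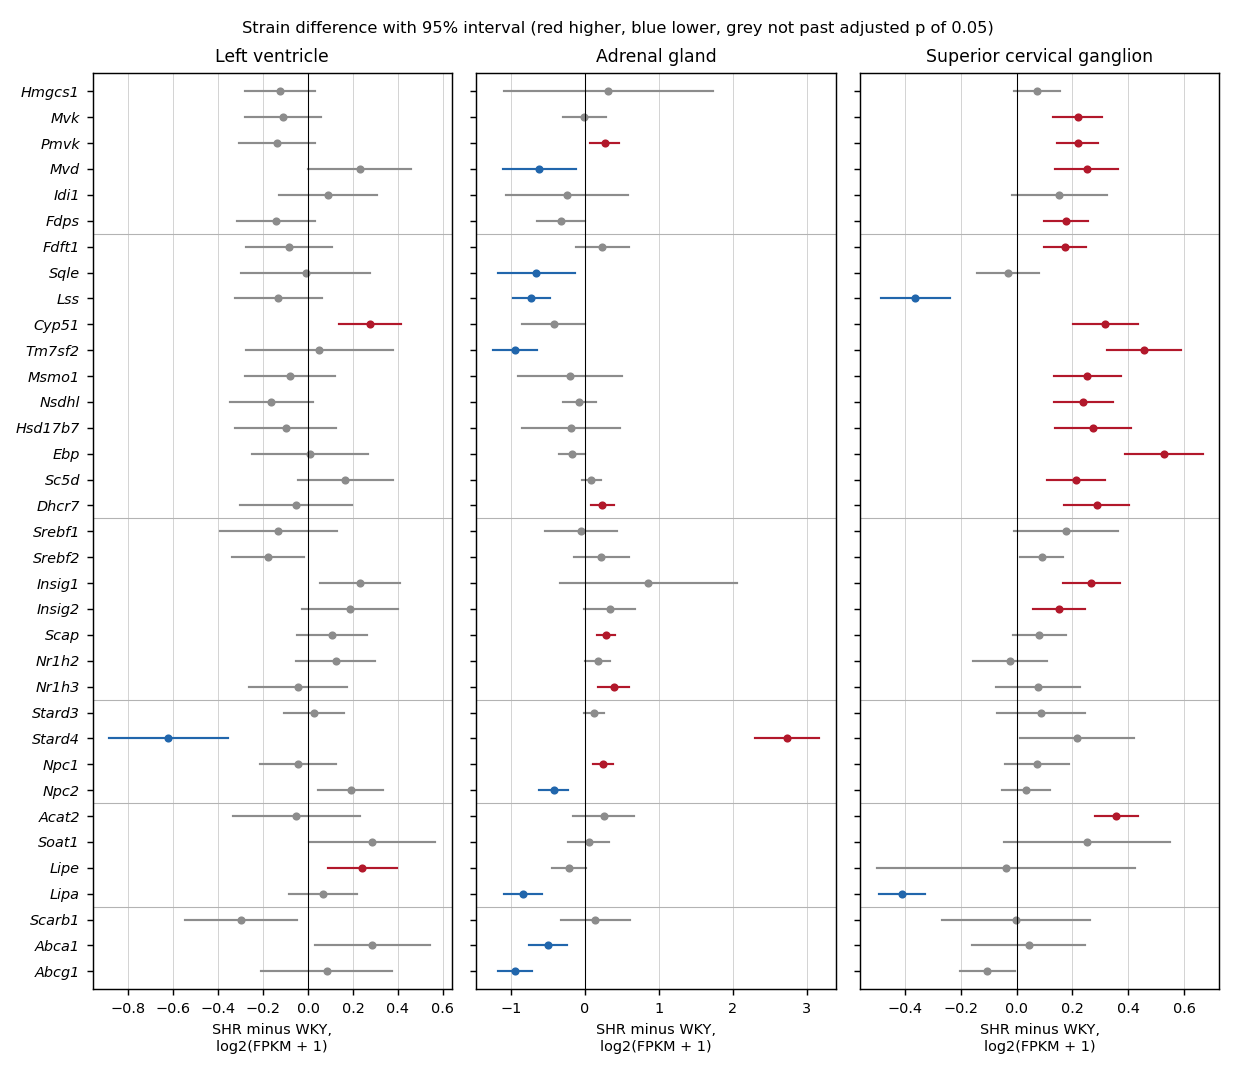
SHR minus WKY as log2(FPKM + 1) for the 35 members in each tissue, with 95% intervals; red marks genes called higher, blue lower and grey those not past the threshold, and the x ranges differ between panels. Intervals are narrow and mostly right of 0 in the ganglion, wide and on both sides of 0 in the adrenal gland, and mostly across 0 in the ventricle.

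The joint model also tested how far strain differences varied from tissue to tissue. The 3 contrasts share libraries and are not independent of each other. They also share an estimate of spread between tissues, although the gland libraries spread more than the others. In the joint model 18 members were called for strain in the gland, against 14 when it was fitted apart. Adjusted p-values of contrasts with the gland may therefore be too small. For adrenal gland against ventricle, 6 members had a more positive difference in the gland and 9 a more negative one, against 15.5% and 19% of all genes. For adrenal gland against ganglion, the counts were 2 and 12, against 10.7% and 19.1%, and 5 and 9 under median-of-ratios scaling. For ganglion against ventricle they were 5 and 1, against 8.59% and 5.84%.

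Stard4 passed in all 3 contrasts. Its strain difference was 3.36 larger in the gland than in the ventricle (SE 0.22, adjusted p = 1.32e-10), 2.52 larger than in the ganglion (SE 0.22, adjusted p = 1.54e-08) and 0.84 larger in the ganglion than in the ventricle (SE 0.22, adjusted p = 0.0114). Tm7sf2 was the enzyme with the largest contrast, -1.40 between gland and ganglion (SE 0.18, adjusted p = 2.99e-06), and -0.995 between gland and ventricle (SE 0.18, adjusted p = 1.47e-04). Ebp rose in the ganglion and stood at 21.7, 23.3, 22.8 and 23 FPKM in the WKY gland and 21.4, 22.0, 17 and 20.3 in the SHR gland. In the ventricle it was at 4.85 to 6.81 and 4.88 to 6.57. The contrast was -0.70 for gland against ganglion (SE 0.13, adjusted p = 3.78e-04) and 0.52 for ganglion against ventricle (SE 0.13, adjusted p = 0.0104).

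Cyp51 rose in ganglion and ventricle, and in the gland SHR libraries were at 60.8, 72.6, 37.7 and 52.8 FPKM against 70.8, 87.1, 62.3 and 74.5 in WKY. That adrenal difference, -0.42, did not pass when the gland was fitted apart, though it did in the joint model. There it differed from the ventricle by 0.69 and from the ganglion by 0.74 (adjusted p = 0.00392 and 0.00306). Fdps in the gland was at 86.7, 94.6, 80.0 and 80.9 in WKY and 77.5, 77.7, 48.6 and 74.2 in SHR, with replicate 3 of SHR far below the rest. Gland and ganglion differed by 0.49 for Fdps (SE 0.15, adjusted p = 0.0131). Lss, Sqle, Mvd and Nsdhl were also more negative in the gland than in the ganglion, by 0.36, 0.63, 0.86 and 0.31. Of these, Lss, Sqle and Nsdhl lost their calls in 9, 15 and 10 of 23 alternative settings, among them the one without SHR replicate 3 of the gland, with an adjusted p up to 0.113, 0.0947 and 0.108. Against the ventricle, Mvd, Sqle and Lss were more negative in the gland by 0.84, 0.64 and 0.59, with the Sqle call lost in 7 of 23 settings (adjusted p up to 0.0757). The Nsdhl gland values were 12.5 to 15.3 in WKY and 11.1 to 14.6 in SHR.

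The pumps and the lysosomal genes Lipa and Npc2 were more negative in the gland than in both other tissues. Npc1, which also acts in lysosomes, went the other way against the ventricle (0.30). Abcg1 gave -1.03 against the ventricle and -0.84 against the ganglion (adjusted p = 1.10e-05 and 1.49e-04). Abca1 gave -0.79 and -0.54 (adjusted p = 5.74e-04 and 0.0130). Npc2 gave -0.61 and -0.45 (adjusted p = 4.01e-05 and 0.00103). Lipa passed in all 3, with -0.90, -0.42 and, for ganglion against ventricle, -0.48 (adjusted p = 4.84e-06, 0.00973 and 0.00918). In the ventricle Lipa was at 29.9 to 34.3 and 30.2 to 34.8 FPKM, which overlap.

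Members more positive in the gland than in the ventricle were, besides Stard4, Nr1h3 (0.43), Pmvk (0.41), Srebf2 (0.40), Npc1 (0.30) and Dhcr7 (0.29). Srebf2 had adrenal levels of 29.8, 36.4, 26.4 and 36.4 FPKM in WKY and 42.2, 38.4, 27.0 and 44.9 in SHR, where the groups overlapped through SHR replicate 3. In the ventricle the SHR libraries, at 7.33 to 7.95, were all below WKY, at 8.12 to 9.82, a difference that did not pass (adjusted p = 0.106). The Srebf2 contrast, with adjusted p = 0.0497, was lost in 17 of 23 alternative settings, and that of Dhcr7 in 14 (adjusted p up to 0.119 and 0.0999). Scap was more positive in the gland than in the ganglion by 0.21 (adjusted p = 0.0418), a call lost in 12 of 23 (adjusted p up to 0.0947). For ganglion against ventricle, Nsdhl, Pmvk and Dhcr7 were more positive in the ganglion by 0.40, 0.36 and 0.34, with the call lost in 15 of 23 settings for Dhcr7 and under median-of-ratios scaling for Pmvk (adjusted p = 0.0550). The Dhcr7 libraries of the ventricle were at 1.18 to 1.58 FPKM in WKY and 0.980 to 1.59 in SHR.

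Related pathways put the enzyme changes in context. In the ganglion 6 of 8 tested fatty acid synthesis genes, which share SREBP control with the cholesterol enzymes, rose, where 6.37% of all tested genes did. Acss2, which makes acetyl-CoA from acetate, rose from 70.0 ± 1.56 to 98.4 ± 3.90 FPKM (0.48, SE 0.04, adjusted p = 2.67e-05). Acly, which makes acetyl-CoA from citrate, rose by 0.25 and the desaturase gene Scd by 0.37 (adjusted p = 0.00126 and 0.00145). The prenyl branches use intermediates of the mevalonate pathway for ubiquinone, dolichol and protein prenylation. In limma 0 of their 11 genes passed in the ganglion, where 6.37% of all tested genes were called higher and 4.43% lower. Of these 11, 1 had an unadjusted p under 0.05, and the median difference was 0.03. In the ventricle 0 passed, against 9.2% and 12% of all tested genes, with 2 at an unadjusted p under 0.05. In the gland 1 passed, Coq2 (-0.24), a ubiquinone synthesis gene, against 16.5% and 24.7%.

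In the gland 1 of 8 fatty acid synthesis genes rose, Fads1 (0.87), and 1 fell, where 16.5% and 24.7% of all tested genes did. The one that fell was Me1, malic enzyme, a source of NADPH, at 354 ± 36.1 FPKM in WKY and 22.3 ± 3.65 in SHR, a difference of -3.94 (SE 0.11, adjusted p = 2.09e-08). In the ventricle Me1 was the gene of this list that passed, and it was higher in SHR (0.36, SE 0.07, adjusted p = 0.00596).

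A further list held 35 other genes of cholesterol handling, from uptake to oxysterols. In the gland 8 of 30 tested rose and 4 fell, where 16.5% of all tested genes rose and 24.7% fell. More of this list rose than fell, while among all genes more fell. Ch25h, cholesterol 25-hydroxylase, rose from 2.34 ± 0.206 to 5.22 ± 1.17 FPKM (0.88, SE 0.13, adjusted p = 7.76e-04). Stard5, a sterol carrier related to Stard4, rose by 0.37 and Erlin2, an endoplasmic reticulum protein tied to sterol-regulated protein turnover, by 0.34 (adjusted p = 0.00197 and 0.00180). Gramd1b, which carries cholesterol from the plasma membrane to the endoplasmic reticulum, fell from 378 ± 43.1 to 268 ± 31.2 (-0.50, SE 0.10, adjusted p = 0.00407), and the lipoprotein receptor gene Vldlr fell by 0.34 (adjusted p = 0.0199).

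In the ventricle 3 of 29 tested genes of that list rose and 1 fell, where 9.2% and 12% of all tested genes did. Ch25h was at 0.553 ± 0.280 FPKM in WKY and 3.17 ± 1.5 in SHR (1.36, SE 0.26, adjusted p = 0.00687). Stard5 rose by 0.37, while Vldlr fell by 0.33 (adjusted p = 0.0391 and 0.0132). In the ganglion 2 of 30 rose and 1 fell, against 6.37% and 4.43%. Cyp27a1, which oxidizes cholesterol to an oxysterol in mitochondria, rose there from 6.59 ± 0.711 to 8.06 ± 0.348 (0.26, SE 0.07, adjusted p = 0.0445).

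The authors' deposited table holds its own log2 ratios and q-values. At a q under 0.05 the authors' deposited table had 15 members higher and 3 lower in the ganglion, 7 and 8 in the gland, and 5 and 1 in the ventricle, where 8.72%, 31.7% and 16.0% of all genes with a q-value passed. Of the 18, 14 and 3 members called here, 17, 14 and 3 passed in the same direction in the authors' deposited table. Insig2 in the ganglion was the exception.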

How the data were processed

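The deposited table gives FPKM per gene and library, 22864 genes of which 2358 were blank throughout, and the authors' own log2 ratios with q-values, per the file headers. Tools listed in the submitters' processing notes are RSEM 1.3.1, DESeq2 1.4.5 and Bowtie2, with Rnor_6.0 as build. No source used here gives the annotation, the use of strand or read numbers. RNA was extracted with Trizol and libraries were made with a KAPA kit for a BGISEQ-500 instrument, per the labels' protocols. Groups and replicate numbers come from the titles.

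R 4.3.3 and limma 3.58.1 (trended, robust moderation) were used on log2 values of FPKM plus 1, among genes at FPKM of 1 or more in at least 4 libraries fitted, 2-sided, with Benjamini-Hochberg adjustment over all genes. Each tissue was fitted apart; contrasts between tissues came from a joint model of 24 libraries. The test was checked on simulated data with independent noise for each gene. Those data hold no shift shared by many genes of a library, so the check does not cover such shifts. Alternatives were a pseudocount of 0.1, no filter, a filter at FPKM of 5, median-of-ratios scaling, quantile normalization, plain moderation, a replicate block, the joint model for strain differences, and leaving out each library. Low FPKM values did not fall on common steps, so no read depth could be recovered, and precision rests on 4 libraries. Correlations between libraries of a strain were 0.983 to 0.991, 0.979 to 0.991 and 0.988 to 0.994 in ventricle, gland and ganglion, and no pair shared more than 0.647% of values.

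Members and gene lists were chosen with earlier results of these data known. Values per library are given for members called with a difference of at least 0.5 and for those past a contrast between tissues; of other lists, up to 3 genes each way per tissue by smallest adjusted p. A few genes the rule would name are counted but not reported here. Promoters of 7 members were not used here. Nr1h3, Srebf1, Idi1 and Npc1 overlap other genes in the RefSeq annotation, so their reads may be shared.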

Additional observations from a re-analysis of the deposited data

Results flagged for a closer look

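In 13 of 210 groups of 4 libraries 1 library lay far from the other 3; chance alone would give about 1 in 20. In the SHR adrenal gland it was replicate 3 in 4 cases, with Mvd at 7.97 FPKM (others 14.1 to 14.9), Fdps at 48.6 (74.2 to 77.7), Sqle at 12.2 (24.3 to 25.0) and Msmo1 at 37.7 (72.7 to 77.6). In the WKY gland, replicate 1 had Hsd17b7 at 17.5 (7.94 to 8.76). In the ganglion, SHR replicate 4 had Hmgcs1 at 308 (332 to 335) and WKY replicate 3 had Npc1 at 7.03 (7.52 to 7.57). In the WKY ventricle, Idi1 was at 2.06 in replicate 2 (1.56 to 1.61), Ebp at 6.81 in replicate 1 (4.85 to 5.15), Insig1 at 27.9 (31.5 to 32.1) and Nr1h3 at 10.4 (11.6 to 11.8) in replicate 3, and Lipa at 34.3 in replicate 4 (29.9 to 30.5). In the SHR ventricle replicate 3 had Nr1h3 at 13.7 (9.89 to 10.5).

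Strain differences themselves differed between tissues for some of the 35 members, in the joint model and on the log2 scale. They were 15 for gland against ventricle, 14 for gland against ganglion and 6 for ganglion against ventricle. Of all genes, 15.5%, 10.7% and 8.59% were more positive in these contrasts and 19%, 19.1% and 5.84% more negative. Gland minus ventricle gave 3.36 for Stard4, 0.43 for Nr1h3, 0.41 for Pmvk, 0.40 for Srebf2, 0.30 for Npc1 and 0.29 for Dhcr7. It gave -1.03 for Abcg1, -0.995 for Tm7sf2, -0.90 for Lipa, -0.84 for Mvd, -0.79 for Abca1, -0.69 for Cyp51, -0.64 for Sqle, -0.61 for Npc2 and -0.59 for Lss. Gland minus ganglion gave 2.52 for Stard4 and 0.21 for Scap. It gave -1.40 for Tm7sf2, -0.86 for Mvd, -0.84 for Abcg1, -0.74 for Cyp51, -0.70 for Ebp, -0.63 for Sqle, -0.54 for Abca1, -0.49 for Fdps, -0.45 for Npc2, -0.42 for Lipa, -0.36 for Lss and -0.31 for Nsdhl. Ganglion minus ventricle gave 0.84 for Stard4, 0.52 for Ebp, 0.40 for Nsdhl, 0.36 for Pmvk, 0.34 for Dhcr7 and -0.48 for Lipa.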

How the results depend on the processing

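No difference of a member that passed the threshold changed sign in any alternative run. Differences that did not pass, and genes of other lists, were not checked for this. In the ganglion the joint model of all 24 libraries left 5 members called of 18; the joint model uses a spread that gland and ventricle also set. In the ventricle median-of-ratios scaling and quantile normalization each gave 5 members called against 3. Other totals of called members stayed within 1.5 times those reported. Counts in 1 direction moved further under median-of-ratios scaling: members more positive in gland than ganglion went from 2 to 5, those more positive in ganglion than ventricle from 5 to 3, and those lower in WKY gland than WKY ventricle from 2 to 5. Leaving out 1 library in turn gave 2 to 4 in the ventricle, 10 to 15 in the gland and 16 to 19 in the ganglion. It gave 12 to 16, 10 to 14 and 5 to 6 for gland against ventricle, gland against ganglion and ganglion against ventricle, and 30 to 32, 31 to 32 and 33 to 34 for the same tissue pairs in WKY. The replicate numbers were not taken as pairs, because in no set of same-numbered libraries did every pair correlate above 0.1 in its deviations from the group means; within the gland the correlations were 0.000114 to 0.209. In the ganglion they reached 0.204 for the same number and 0.318 for different numbers, so not every library correlated best with its own number. With a replicate block the counts were 3, 17 and 17 for ventricle, gland and ganglion, 13, 13 and 5 for the contrasts between tissues and 30, 31 and 34 in WKY. Fdps, Cyp51 and Insig1 were added in the gland under the block. The number of libraries limits precision, and the depth behind each FPKM value is unknown.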
